A study of Mus musculus with 16 samples.

Results

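High-fat diet (HFD) was compared with control diet in CD11b+ cells from mouse spleen, on the 8 arrays whose titles name spleen-derived CD11b+ cells, out of 16 arrays in the series. The other 8 arrays hold bone marrow CD11b+ cells of the same design. Each array held cells pooled from 5 mice, all given as male, and the HFD mice had been fed for 3 months in a protocol meant to model atherosclerosis. There was 1 control array and 1 HFD array for each of 4 genotypes: WT (wild type), STAT4-/-, STAT6-/- and HDC-/-, the labels' names for mice without the interleukin signalling factors STAT4 or STAT6 or without histidine decarboxylase, the enzyme that makes histamine. No further allele or agent is named in the labels, the control group is described as fed a normal diet, and the sources used here give no strain or age. The comparison is therefore 4 HFD arrays against 4 control arrays, paired within genotype, and the 4 pairs are the only replicates of diet. Pair values are given in the order WT, STAT4-/-, STAT6-/- and HDC-/- throughout.

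CD11b, encoded by Itgam, is an integrin chain carried by neutrophils, monocytes, macrophages, eosinophils, some dendritic cells and natural killer cells, so a CD11b+ fraction of spleen is a mixture of these. In spleen, monocytes wait as a reserve, red pulp macrophages recycle iron from old red cells, and dendritic cells present antigen to T cells. Interferons act on all of them. Type I interferon acts through a complex that holds STAT2 and IRF9 on a DNA element called ISRE, and interferon-gamma acts on an element called GAS and induces immunity-related GTPases. In hypercholesterolaemic mice, spleen and marrow also release more neutrophils and monocytes, and histamine-making myeloid cells are studied there because HDC marks part of the CD11b+ population.

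Levels below are log2 signals over the 75th percentile of their array, so a difference of 1 is 2-fold, and a level says nothing about one gene against another. Between 70.7% (WT control) and 84.4% (HDC-/- control) of spots were well above background on the 8 arrays, and no spot was saturated. Itgam itself was at 3.64 and 3.87 on the WT control and HFD arrays, 4.50 and 5.89 on the arrays labelled STAT4-/-, 4.53 and 3.77 in STAT6-/-, and 3.00 and 4.83 in HDC-/-, and was thus well detected on every array. Hdc was at 1.45 and 0.83 on the HDC-/- arrays and between 3.91 and 5.04 on the other 6. Stat4 went against its label, with 0.42 on the control array and 3.35 on the HFD array labelled STAT4-/-, against 1.15 and 1.03 in WT, so these arrays are called by their label throughout. Stat6 was at 2.64 and 2.39 on the STAT6-/- arrays and at 3.59 and 3.29 on the WT arrays, a smaller gap than that of Hdc. On the control array labelled STAT4-/- it was at 2.44, between the STAT6-/- values, so Stat6 did not set the STAT6-/- arrays apart. Stat4 was at -0.15 on the STAT6-/- control array, below both arrays labelled STAT4-/-. The sources used here do not place these probes relative to the deleted parts.

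Both diets of WT and of STAT6-/- carried Y-linked RNA, whereas the control pools labelled STAT4-/- and HDC-/- did not. Ddx3y, a Y-linked helicase gene, was between 0.96 and 2.05 on 6 arrays but at -7.56 and -9.27, not well above background, on these 2 control arrays. That made it at least 168-fold higher on the HFD array than on the control array labelled STAT4-/-, and at least 313-fold higher in HDC-/-, where the bound sets the bright level against the lowest signal that was well above background on the dim array. Xist, which is made from the inactive X chromosome of females, was well above background by the probe tested on the same 2 control arrays alone, at -3.06 and -3.68. A brighter Xist probe, left out of the fit for a spot marked as an outlier, was at -1.71 and -2.08 there and between -6.68 and -5.05 on the other 6 arrays. In these pairs diet and pool composition cannot be told apart, and results that rest on them are also given for the WT and STAT6-/- pairs alone. In pooled cells, fewer cells of a type and less RNA per cell cannot be told apart either.

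The size of the difference between diets varied between genotypes more than it was shared. In the WT pair 1006 features (4.42% of the 22739 measured well above background on both arrays) were at least 2-fold higher on HFD and 379 (1.67%) at least 2-fold lower. In the STAT6-/- pair these shares were 1.61% and 3.4%, with more features lower than higher. The pair labelled STAT4-/- had 15.9% at least 2-fold higher and 11.9% lower, and the HDC-/- pair had 11.9% and 9.74%. Without the requirement on background, the shares higher and lower were 16.3% and 1.69% in WT, 18.2% and 12.2% in the pair labelled STAT4-/-, 2.26% and 4.24% in STAT6-/-, and 11.3% and 11.2% in HDC-/-. Only 29 features (0.116%) were 2-fold higher in both the WT and the STAT6-/- pair and 20 (0.0797%) were 2-fold lower in both.

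**Figure D1:**
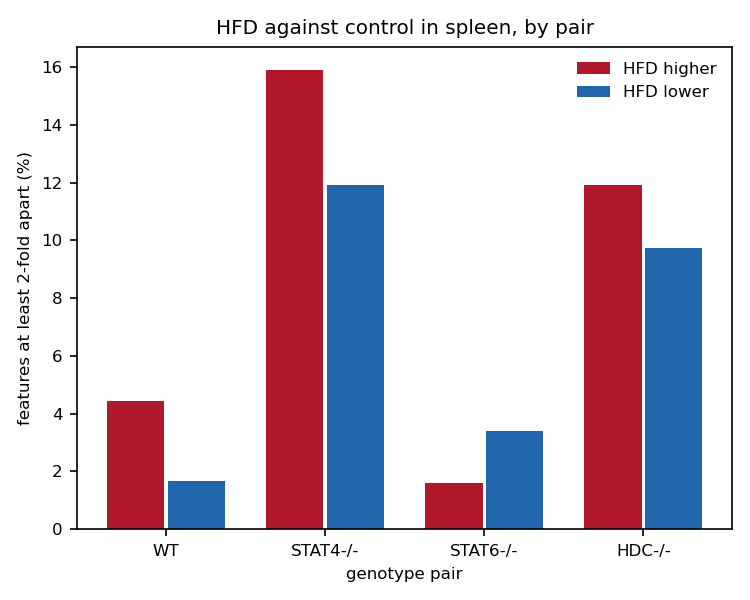
Percentage of features (vertical axis) at least 2-fold higher (red) or lower (blue) on HFD than on control in each spleen genotype pair (horizontal axis), among features well above background on both arrays of the pair; each bar rests on 1 array a diet. The pairs labelled STAT4-/- and HDC-/- reach 15.9% and 11.9% higher, against 4.42% in WT and 1.61% in STAT6-/-.

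The differences of STAT6-/- ran against those of the other pairs, and no 2 pairs were closely alike. Over the 21579 features well above background on all 8 arrays, the Pearson correlation across features of the STAT6-/- differences was -0.25 with WT, -0.32 with the pair labelled STAT4-/- and -0.28 with HDC-/-. It was 0.39 between the pairs labelled STAT4-/- and HDC-/-, 0.27 between WT and HDC-/-, and 0.01 between WT and the pair labelled STAT4-/-. Features are not independent replicates, and each pair shares only its own arrays. The HFD array labelled STAT4-/- stood apart, with a mean correlation of 0.947 to the other spleen arrays and 0.970 to the marrow arrays, whereas each other spleen array was closer to spleen.

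No gene passed the test of a common diet effect. In a limma fit with genotype as a block, 0 of 28781 features had an adjusted p under 0.05 in either direction (0% called). At an unadjusted p under 0.05 there were 775 features higher (2.69%) and 514 lower (1.79%). All 4 HFD arrays lay above all 4 control arrays for 136 features (0.473%) and below them for 94 (0.327%). Among the 25095 features well above background on at least 6 of the 8 arrays, from which genes are named, these shares were 0.49% and 0.351%. Both diets of a genotype were read in 1 scan, WT with the arrays labelled STAT4-/- and STAT6-/- with HDC-/-. The direction was the same in 4 of 4 pairs for 2040 features higher (7.09%) and 934 lower (3.25%), or 6.47% and 3.55% of those above background on 6 arrays. These shares are the background against which the genes and groups below are read. The median difference over all features was 0.19, 0.37, -0.10 and 0.09 in the 4 pairs, so a gene difference of that size is no more than that of the middle feature. In the pair labelled STAT4-/- it was 0.34 under median scaling and 0.18 under quantile normalization. Values of gene groups below are medians after subtracting the median over all features.

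Akap7, an anchoring protein for protein kinase A, had the largest lower mean difference among genes that separated the diets. Its level was 0.15 on the WT control array and -1.38 on the WT HFD array, 3.47 and 0.09 on the arrays labelled STAT4-/-, 2.36 and -1.09 in STAT6-/-, and 1.74 and -0.74 in HDC-/-. Every HFD array lay below every control array, by a small margin set by the WT control and the HFD array labelled STAT4-/-. The mean difference was -2.71 (SD of the 4 pair differences 0.90), a 6.55-fold lower signal. Its SE was 0.38 in the limma fit of all 16 arrays, from which all SEs below come, with an adjusted p of 0.462. With another background correction (normexp) Akap7 was the single gene called, at -2.68 and an adjusted p of 0.0227. The other 2 Akap7 probes did not show it, with mean differences of -0.05 and -0.31, and the mean of all 3 probes gave -1.02. In marrow the same probe differed by -1.20, lower in 4 of 4 pairs.

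Phax, an adaptor that exports small nuclear RNA from the nucleus, was at -0.16, -0.15, -0.55 and 0.06 on the control arrays and at -1.80, -2.69, -0.99 and -2.79 on the HFD arrays. The control levels lay within a narrow band and all HFD levels were below it, least so in STAT6-/-. The mean difference was -1.87 (SE 0.39, adjusted p = 0.771 by limma). Pla1a, a phospholipase acting on phosphatidylserine, had control levels of -2.41, -2.25, -2.33 and -2.54 and HFD levels of -3.22, -3.19, -3.60 and -3.62. Its pair differences lay between -0.81 and -1.27, with a mean of -1.03 (SD 0.19, SE 0.23, adjusted p = 0.771 by limma). The WT and STAT6-/- pairs alone gave -1.04 and the other 2 pairs -1.01. Pla1a was lower in 4 of 4 marrow pairs as well, by a mean of -0.35.

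Arrdc3, an arrestin-domain protein that takes part in receptor trafficking and in energy balance, had control levels of 1.32, 1.57, 1.68 and 1.82 and HFD levels of 1.00, 0.29, 0.36 and -0.49. No HFD array reached a control array, and the WT pair was closest, with a mean difference of -1.31 (SE 0.43, adjusted p = 0.771). Tmem229a, a transmembrane protein, was dimmer, with control levels of -4.37, -4.58, -4.37 and -4.53 and HFD levels of -6.18, -5.74, -4.98 and -6.45. It was well above background on 7 of the 8 arrays, and the mean difference was -1.38 (SE 0.30). Bmp8a, a growth factor of the BMP family (-1.05), and St6galnac4, a sialyltransferase (-0.88), were also lower with no overlap. So was Mal, a protein of lipid rafts (-1.24), though on the HFD array labelled STAT4-/- it was not well above background, so that this pair gives only a signal at least 1.79-fold lower.

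Genes with no overlap that were higher on HFD included Sema4f, a transmembrane semaphorin. It was at -2.10, -1.98, -2.28 and -2.73 on the control arrays and at -1.57, -0.07, -1.63 and -1.04 on the HFD arrays. Its mean difference was 1.20 (SE 0.32, adjusted p = 0.771), and the STAT4-/- labelled and HDC-/- pairs gave 1.80 on average against 0.59 in the other 2. Mlx, the partner of the glucose-sensing factor MondoA, was at 0.25, -0.10, -0.22 and 0.18 on the control arrays and 0.33, 1.68, 0.39 and 1.16 on the HFD arrays. The lowest HFD level was only just above the highest control level, and under median scaling 3 of its 4 pairs were higher. Its mean of 0.86 was 0.56 without the pair labelled STAT4-/-. The RIKEN transcript 1810010H24Rik was dim but even, with control levels of -5.65, -5.61, -5.67 and -5.63 and HFD levels of -4.96, -4.63, -4.92 and -4.61. Its mean difference was 0.86 in spleen and 1.05 in marrow, higher in 4 of 4 pairs of both. The RIKEN transcript 4933412O06Rik had a mean difference of 2.11 (SE 0.67), with 4.43 in the HDC-/- pair, and without that pair it was 1.34. Zfp865, Scmh1, a Polycomb group protein, Bpifa5 and Syne4 had mean differences between 0.64 and 0.85.

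**Figure D2:**
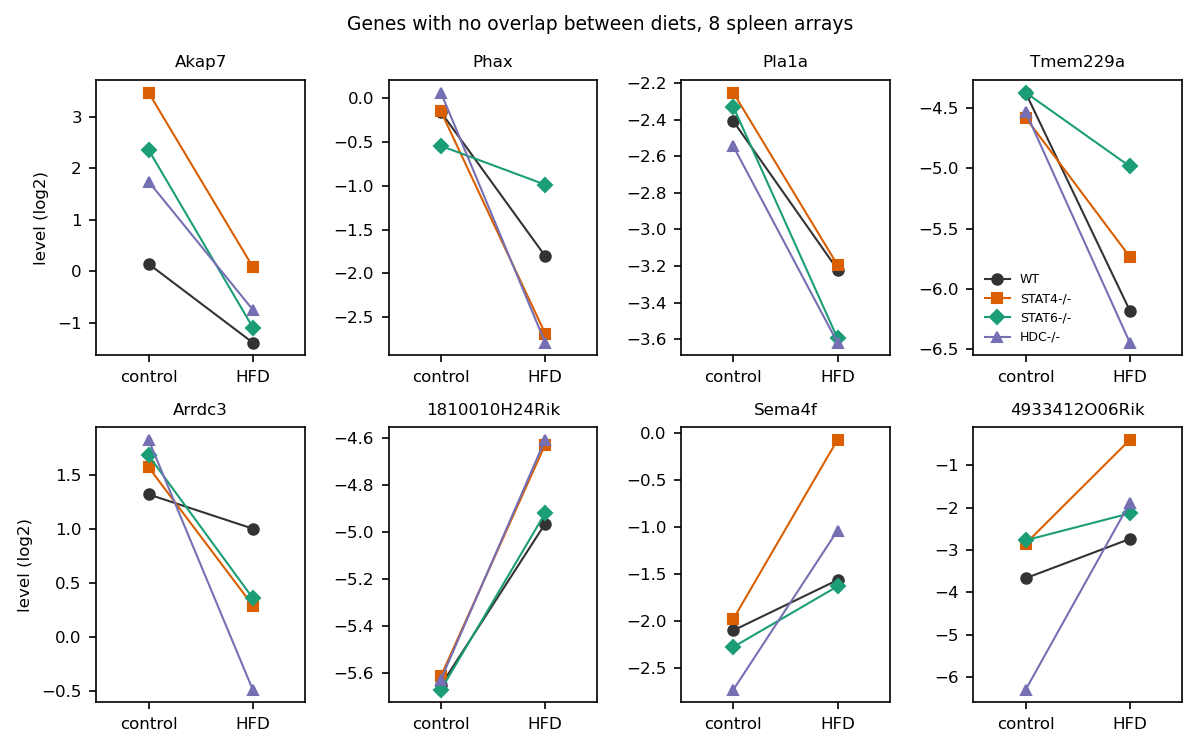
Levels (vertical axes, log2 signal relative to its array's 75th percentile) of 8 genes whose HFD and control arrays (horizontal axes) did not overlap in spleen; each symbol is 1 array and lines join the 2 diets of a genotype. Every line of Akap7, Phax, Pla1a, Tmem229a and Arrdc3 runs down, every line of the 3 other genes runs up, and slopes differ between genotypes.

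Genes induced by interferon-gamma had the lowest median of the pathway lists. Of 19 listed genes, all measured, 11 were lower on HFD in 4 of 4 pairs (57.9%, against 3.25% of all features) and 1, Nos2, was higher in 4 of 4. The median over the list was -1.61 relative to all features, and -1.55, -0.90, -0.19 and -2.77 in the 4 pairs, and without HDC-/- it was -0.92. In the WT and STAT6-/- pairs 14 of 19 were lower in both (18.0% of all features were), and their mean gave -0.85. No member passed the limma test after adjustment, and 12 had an unadjusted p under 0.05 in the lower direction. In marrow 6 of 19 were lower in 4 of 4 pairs (4.72% of all features were), with a median of -0.91 relative to all features.

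Cxcl9, a chemokine that draws T cells through CXCR3, was at 1.45 and 0.09 on the WT control and HFD arrays, -0.64 and -3.30 on those labelled STAT4-/-, -0.43 and -1.47 in STAT6-/-, and 0.41 and -2.18 in HDC-/-. It was more than 2-fold lower in every pair, though the groups overlapped because WT was high on both diets. The mean difference was -1.91 (SE 0.55, adjusted p = 0.771), and its 2 probes gave -1.91 and -1.88. Iigp1, a GTPase that disrupts the vacuoles of intracellular parasites, had the largest mean difference of the list, -2.08 (SE 0.47, adjusted p = 0.771). Its pair differences were -2.30, -2.53, -0.45 and -3.04, from control levels of 1.52, -2.48, -2.31 and 0.44.

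The guanylate-binding proteins coat such vacuoles and feed into the inflammasome. Gbp2 had control levels of 6.02, 2.15, 2.85 and 4.46 and HFD levels of 4.40, 1.64, 2.11 and 1.05. Every pair was lower but by different amounts, with pair differences of -1.61, -0.51, -0.74 and -3.41 and a mean of -1.57 (SE 0.53, adjusted p = 0.771). Gbp2b, a relative outside the list, went from 4.74, 0.77, 1.36 and 3.46 on the control arrays to 2.88, -0.04, 0.50 and -0.71 on the HFD arrays, a mean difference of -1.93. Without HDC-/- the means of Gbp2 and Gbp2b were -0.95 and -1.18. Gbp7 and Gbp5 were lower in 4 of 4 pairs, by means of -1.72 and -1.48, and so were the immunity-related GTPases Igtp (-1.38), Irgm1 (-1.30), Irgm2 (-1.51) and Tgtp2 (-1.81). Of these, Gbp5, Igtp, Irgm1 and Irgm2 moved most without HDC-/-, to -0.78, -0.78, -0.69 and -0.71. Gbp3, Gbp4 and Gbp6 were lower in 3 pairs and higher in STAT6-/- by 0.22, 0.58 and 0.25. The Gbp, Tgtp and Ifit3 families hold near-identical copies whose probes may share RNA, so values of single members are uncertain. Irf1, the transcription factor upstream of many of these genes, had smaller differences of -0.37, -0.76, -0.19 and -0.90.

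Nos2, inducible nitric oxide synthase, ran the other way. It was dim, at -4.12, -3.32, -3.05 and -4.24 on the control arrays and -3.50, -2.51, -1.08 and -0.94 on the HFD arrays. The mean difference was 1.68 (SE 0.60, adjusted p = 0.771), and the pairs overlapped through the WT array on HFD. Ciita, the regulator of MHC class II, was dim as well and had pair differences between -0.18 and 0.64.

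Most type I interferon genes were lower on HFD in WT, STAT6-/- and HDC-/-, and by the most in HDC-/-, while the pair labelled STAT4-/- was divided. Of the 29 tested, 27, 15, 24 and 29 were below 0 in the 4 pairs, against 33.6%, 34.7%, 61% and 44.8% of all features. The median in the pair labelled STAT4-/- was -0.01 before subtraction. Of 31 listed genes 29 were tested, and 12 were lower in 4 of 4 pairs (41.4%, against 3.25% of all features). In 4 of 4 pairs 0 were higher (7.09% of all features were), and the mean difference of all 29 was below 0. The list median was -1.13 relative to all features and -0.97, -0.38, -0.26 and -3.14 in the pairs, and without HDC-/- it was -0.57. In HDC-/- 28 of 29 were at least 2-fold lower (11.2% of all features were), in WT 8 (1.69%), in STAT6-/- 4 (4.24%) and in the pair labelled STAT4-/- 2 (12.2%). In WT and STAT6-/- 22 of 29 were lower in both pairs and 0 higher in both, and the median of their mean was -0.67. Of the 29, 9 had an unadjusted limma p under 0.05, all lower, and 0 passed after adjustment. In marrow 5 of 29 were lower in 4 of 4 pairs.

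Isg20, an exonuclease that degrades viral RNA, and Ifi27l2a, a small interferon-induced membrane protein, were the 2 members whose diets did not overlap. Isg20 was at 4.42, 4.13, 4.37 and 5.43 on the control arrays and 4.0, 3.43, 3.77 and 3.31 on the HFD arrays, and its mean difference was -0.96 (SE 0.37, adjusted p = 0.771), or -0.58 without HDC-/-. Ifi27l2a was at 5.57, 5.35, 5.21 and 5.69 on the control arrays and 5.13, 4.68, 5.20 and 4.97 on the HFD arrays, with STAT6-/- differing by only -0.02. Under quantile normalization and under median scaling 1 of the 4 Ifi27l2a pairs was higher.

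Oasl2, a member of the oligoadenylate synthetase family that senses double-stranded RNA, went from 4.76, 0.89, 1.45 and 5.30 on the control arrays to 3.83, 0.19, 0.57 and 1.63 on HFD. Its pair differences of -0.92, -0.70, -0.87 and -3.66 were close in 3 genotypes and far larger in HDC-/-, without which the mean was -0.83. Ifit3b and Ifit3, antiviral proteins of the IFIT family, had the largest mean differences of the list, -2.47 (SE 1.02) and -2.17 (SE 1.03). Without HDC-/- these were -1.05 and -0.82. Ifit1 had control levels of 3.17, 1.06, 0.93 and 4.92 and HFD levels of 2.23, 0.53, 0.40 and -0.21. Rsad2 (viperin), Usp18, which removes ISG15 from proteins, and Irf7, the factor that amplifies type I interferon, had mean differences of -1.88, -1.73 and -1.34, with HDC-/- at -4.97, -5.07 and -4.07. Without HDC-/- their means were -0.86, -0.62 and -0.42. In the pair labelled STAT4-/- the RNA sensors Ddx58, Ifih1 and Dhx58 were above 0, by 0.39, 0.45 and 1.20, as were Oas3 (1.61) and Cmpk2 (0.91), while all 5 were lower in HDC-/-. The values of Ddx58 and Ifih1 were near the median of all features in the pair labelled STAT4-/-, 0.37. Oas1a was not comparable across genotypes, at -8.08 and -7.01 in WT and between 2.66 and 5.28 on the other arrays.

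The level on control diet differed between genotypes. The mean level of the 29 type I genes was 1.94, 0.79, 1.01 and 3.60 on the control arrays and 1.16, 0.79, 0.58 and 0.31 on the HFD arrays. Control arrays of WT and HDC-/- were high and those of the other 2 genotypes low, while the HFD arrays lay closer together. For the 19 interferon-gamma genes the control levels were 2.17, -0.14, -0.09 and 1.87 and the HFD levels 1.06, -1.09, -0.25 and -0.30. Natural killer cell genes, described below, were high on the same 2 control arrays, and their part in the interferon result was not tested.

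**Figure D3:**
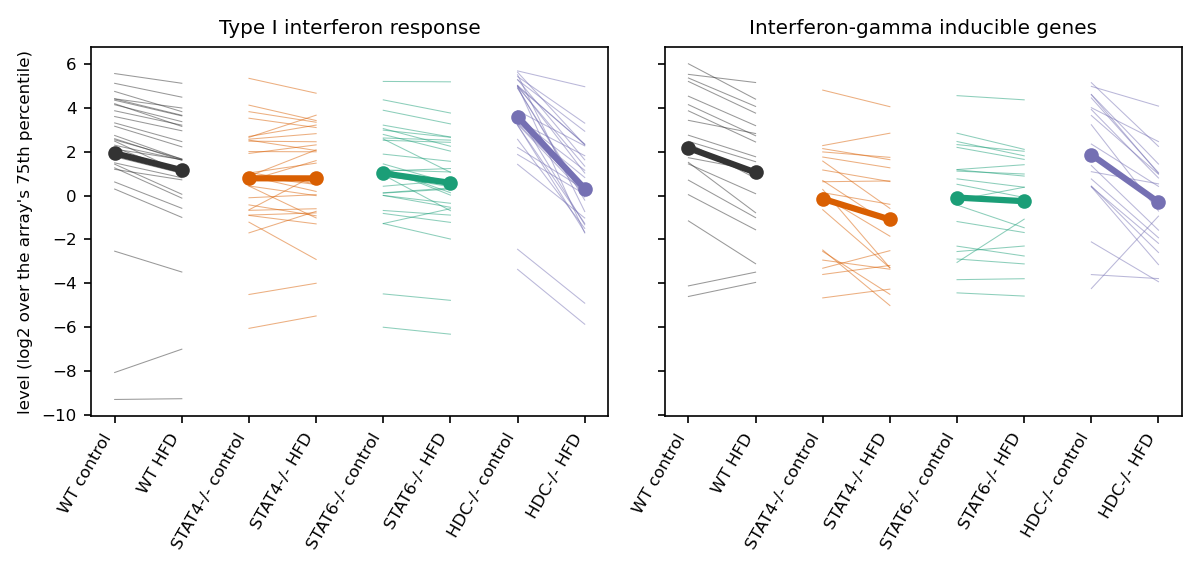
Levels (vertical axis, log2 signal relative to its array's 75th percentile) of the type I interferon genes (left) and interferon-gamma inducible genes (right) on the 8 spleen arrays (horizontal axis); thin lines are genes and thick lines with points are the mean of the list. The type I mean goes from 3.60 to 0.31 in HDC-/- and from 1.94 to 1.16 in WT, and stays at 0.79 in the pair labelled STAT4-/-.

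The promoters of 4 of these genes are shown as examples, all from among those with letters that match ISRE, the element named above for type I interferon. They are given as the 250 bases before the gene start from RefSeq for build GRCm38.p6, 5′ to 3′ on the strand of the gene, with capitals marking matches to the ISRE letters, GAAA, any 2 bases and GAAA, or, on the other strand, TTTC, any 2 bases and TTTC. Ifit1 and Isg15 are from the type I list, and Gbp2 and Igtp from the interferon-gamma list. Matches to the GAS letters are not marked, and Gbp2 has 0 of them in this window and Igtp 1.
Ifit1 (chr19:34640639-34640888, plus strand): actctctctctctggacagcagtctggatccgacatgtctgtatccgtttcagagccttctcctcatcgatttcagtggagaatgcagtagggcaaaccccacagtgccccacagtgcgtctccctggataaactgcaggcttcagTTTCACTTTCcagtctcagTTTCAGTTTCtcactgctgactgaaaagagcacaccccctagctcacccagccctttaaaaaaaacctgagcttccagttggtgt
Isg15 (chr4:156200819-156201068, minus strand): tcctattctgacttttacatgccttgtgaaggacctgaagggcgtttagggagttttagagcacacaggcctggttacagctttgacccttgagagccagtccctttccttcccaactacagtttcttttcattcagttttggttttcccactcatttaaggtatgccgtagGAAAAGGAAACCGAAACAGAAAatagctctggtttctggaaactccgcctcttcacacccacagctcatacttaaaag
Gbp2 (chr3:142620413-142620662, plus strand): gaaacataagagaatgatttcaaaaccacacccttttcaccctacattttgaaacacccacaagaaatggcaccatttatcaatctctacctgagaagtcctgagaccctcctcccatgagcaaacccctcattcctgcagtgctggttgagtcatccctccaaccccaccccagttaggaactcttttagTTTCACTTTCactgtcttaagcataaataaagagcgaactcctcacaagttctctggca
Igtp (chr11:58199306-58199555, plus strand): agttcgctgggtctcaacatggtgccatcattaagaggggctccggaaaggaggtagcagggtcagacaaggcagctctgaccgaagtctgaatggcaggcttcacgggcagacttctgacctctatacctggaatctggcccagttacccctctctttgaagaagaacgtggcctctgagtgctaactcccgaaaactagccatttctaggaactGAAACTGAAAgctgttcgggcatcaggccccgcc

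Ifit1 has 2 matches, beginning 104 and 85 bases before the start, Isg15 has 3 that overlap, the first beginning 78 bases before it, Gbp2 has 1 at 59 and Igtp 1 at 34. The letters were present in the same window of 10 of the 22 type I genes with a promoter in the table (45.5%) and of 11 of 14 interferon-gamma genes (78.6%), against 3.46% of all 27025 genes. The GAS letters, TTC, any 3 bases and GAA, were present in 18.2% and 50% of them and in 8.13% of all genes. Cxcl9, Oasl2 and Akap7 had no ISRE letters in the windows tested. Such matches describe letters and do not show binding.

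Some dendritic cell genes were lower in every pair. Of the 15 tested genes of conventional dendritic cells, which take up antigen and prime T cells, 6 were lower in 4 of 4 pairs (40%) and 0 higher. Of all features 3.25% were lower and 7.09% higher in 4 of 4. The list median was -0.96 relative to all features. The pair medians were -0.41, -2.33, -0.04 and -1.40, and the WT and STAT6-/- pairs alone gave -0.21. Cd209a, a lectin receptor of monocyte-derived and conventional dendritic cells, was at 2.64, 0.69, 0.19 and 2.47 on the control arrays and 0.82, -2.10, 0.06 and -0.72 on the HFD arrays. All pairs were lower, STAT6-/- with a difference of only -0.13, and the mean difference was -1.98 (SE 0.50, adjusted p = 0.771). Batf3, the factor needed for cross-presenting dendritic cells, had differences of -0.21, -1.87, -0.50 and -2.07 (mean -1.16). Clec9a and Xcr1, receptors of those cells, were lower in 3 pairs and higher in WT, by 1.05 and 1.69. Ccr7 and Irf4, a homing receptor and a differentiation factor, differed by -3.68 and -3.82 in the pair labelled STAT4-/- and by 1.97 and 1.91 in HDC-/-.

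Nonclassical monocytes patrol vessel walls, and their genes were lower in 3 genotypes and higher in STAT6-/-. The list median was -0.88 relative to all features and -0.59, -1.93, 0.63 and -2.63 in the pairs (-0.58 without HDC-/-), and 0 of 13 genes were lower in 4 of 4 pairs. Cx3cr1, the fractalkine receptor, went from 0.21, -1.49, -0.82 and 2.50 on the control arrays to -0.87, -3.05, 0.20 and -1.74 on HFD. Clec4a3 and Cd300e followed it, with differences of -1.60 and -1.56 in WT, -1.04 and -2.87 in the pair labelled STAT4-/-, 1.1 and 1.13 in STAT6-/-, and -3.87 and -3.06 in HDC-/-. Red pulp macrophage genes were also higher in STAT6-/- (median 1.47), where 0 of 19 were lower (61% of all features were), and lower elsewhere (-0.54, -1.38 and -0.88). In that pair C1qa, a complement subunit, differed by 1.85, Mertk, a receptor for dying cells, by 2.05, and the iron-cell factor Spic by 1.40. Classical monocyte genes differed in direction, with pair medians of -0.87, 0.36, -0.09 and 0.09, and Ccr2, the receptor that brings monocytes out of marrow, had differences of -1.40, -0.47, 1.31 and -2.67.

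Genes of early neutrophils were higher in 3 genotypes and lower in STAT6-/-. Primary granules are filled at the promyelocyte stage, and their 9 tested genes had a median of 1.42 relative to all features, with 0.52, 1.49, -0.54 and 4.32 in the pairs. The WT and STAT6-/- pairs alone gave -0.06, so the mean rested on the other 2 pairs, and without HDC-/- the median was 0.48. Elane, neutrophil elastase, was at 3.26, 4.51, 5.19 and 1.47 on the control arrays and 3.93, 6.38, 4.53 and 5.87 on the HFD arrays. The HDC-/- control array was the lowest of the 8 for Elane, Mpo (0.96) and Prtn3 (-1.68), and the HDC-/- differences of these serine protease and peroxidase genes were 4.41, 4.44 and 5.88. Secondary granule genes differed less, with a median of 0.51 and pair values of -0.06, 0.52, -0.55 and 1.73. Genes of mature neutrophils had a median of -0.04 relative to all features, with pair values of -0.46, 0.09, -0.20 and 0.62. Of the 14 tested, 5 in the pair labelled STAT4-/- and 6 in HDC-/- were at least 2-fold higher (18.2% and 11.3% of all features were). Mmp9 had the largest mean difference of the list, 1.22, or 0.61 without HDC-/-, while S100a8 and S100a9 differed by no more than 0.53 in any pair.

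Cell cycle genes also differed in direction between pairs. All 25 were lower in STAT6-/-, all 25 were higher in HDC-/-, and 24 were higher in the pair labelled STAT4-/-, with pair medians of 0.07, 0.93, -0.45 and 1.78. Of all features 61% were lower in STAT6-/-, 44.8% in HDC-/- and 34.7% in the pair labelled STAT4-/-. Mki67, a marker of dividing cells, was at 2.55, 3.58, 4.18 and 2.27 on the control arrays and 3.02, 4.92, 3.40 and 4.39 on HFD. Smc4, a condensin subunit outside that list, was higher in 4 of 4 pairs, from 2.30, 3.24, 2.56 and 2.42 to 3.09, 3.86, 3.12 and 3.54 (mean 0.77, SE 0.25, adjusted p = 0.771).

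Markers of other cells differed with diet in some of the pairs. B cell genes had pair medians of 0.05, -3.99, 0.70 and -0.57. In the pair labelled STAT4-/- 13 of 14 members were at least 2-fold lower (12.2% of all features were). T cell genes had -0.18, -2.62, 0.57 and 0.44, and Cd3e differed by -3.07 in the pair labelled STAT4-/-. MHC class II genes were at least 2-fold lower in 10 of 11 members in that pair and in 0 members in the 3 others. Natural killer cell genes had -0.36, -3.27, 0.54 and -2.84. Gzma, a killer cell protease, went from 5.50, 3.33, 2.78 and 5.55 on the control arrays to 5.20, -0.67, 3.60 and 2.19 on HFD, and Ncr1 from 1.62, -1.47, -1.65 and 1.83 to 1.29, -5.01, -0.67 and -1.50. With the WT and STAT6-/- pairs alone the natural killer median was 0.05, in place of -1.31 over 4 pairs, and without the pair labelled STAT4-/- alone it was -0.86.

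Eosinophil genes were lower in the pair labelled STAT4-/- and in STAT6-/-. The list medians were -0.13, -2.90, -1.79 and 0.13 in the pairs, with 4, 9, 7 and 3 of 9 genes below 0. Of all features 33.6%, 34.7%, 61% and 44.8% were. Prg2, a granule protein, was at 0.70, 3.61, 3.94 and -2.91 on the control arrays and 1.39, 1.08, 1.28 and 3.05 on HFD. Its differences were thus -2.53 in the pair labelled STAT4-/- and -2.66 in STAT6-/-, against 5.95 in HDC-/- and 0.69 in WT. Epx, eosinophil peroxidase, had the same signs. The Prg2 mean over pairs was 0.36 (SE 1.14), and -1.50 without HDC-/-. Il5ra, the receptor for the eosinophil growth factor IL-5, differed most in the pair labelled STAT4-/-, from 0.77 to -4.65. Stromal and endothelial genes had a mean level between -4.53 and -3.42 on the 8 arrays, and 12 or 13 of the 13 were well above background on each.

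**Figure D4:**
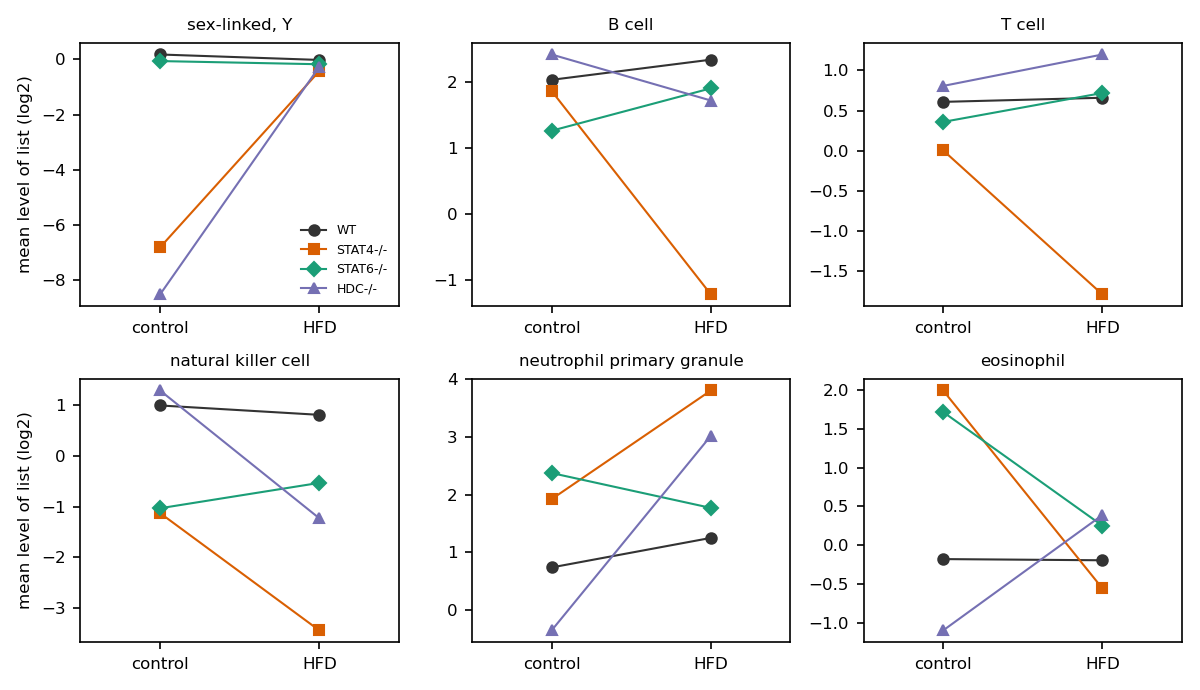
Mean level (vertical axes, log2 signal relative to its array's 75th percentile) of 6 marker lists on control and HFD arrays (horizontal axes) of the 4 spleen genotypes; each symbol is 1 array. Y-linked genes are near the bottom on the control arrays labelled STAT4-/- and HDC-/-, B and T cell genes are low on the HFD array labelled STAT4-/-, and the HDC-/- control array is lowest for primary granule and eosinophil genes.

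Few inflammatory genes had the same direction in every pair, though 2 list medians were below that of all features throughout. The pair medians were -0.89, -0.48, -0.11 and -0.81 for chemokine ligands and -0.60, -0.23, -0.08 and -0.87 for Toll-like receptors. Genes of inflammatory cytokines and the inflammasome had -0.54, -0.11, -0.26 and 0.06. Of the 15 tested chemokine ligands, which recruit leukocytes, 3 were lower in 4 of 4 pairs (20%, against 3.25% of all features). None was higher in 4 of 4 (7.09% of all features were). Under quantile normalization 1 of the 15 was lower in 4 of 4 pairs. Ccl6, a monocyte and neutrophil chemokine, went from 5.79, 5.92, 5.60 and 5.61 to 5.29, 5.04, 5.48 and 3.95, with no overlap between diets and a mean of -0.79 (SE 0.29, adjusted p = 0.771 by limma), though 1 pair was higher under quantile normalization and the mean was -0.50 without HDC-/-. Cxcl16, a chemokine and scavenger receptor for oxidised lipoprotein, went from 0.18, 0.08, -0.50 and -0.35 to -0.57, -1.28, -0.78 and -1.07, again with no overlap (mean -0.78, SE 0.32). Ccl5 had a mean difference of -1.23, with -3.37 in the pair labelled STAT4-/-, and -0.52 without that pair. Cxcl2 and Cxcl3, the neutrophil attractants, differed by 4.82 and 6.30 in HDC-/- and by between -0.62 and 0.70 elsewhere, and the HDC-/- control array read -0.46 and -5.83. Fosb, an immediate early gene, was also low on that array alone, at 0.83 against 4.48 to 5.62 on the other 7.

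Among cytokines, Il1b, the main product of the inflammasome, was lower in 4 of 4 pairs, with 6.0, 6.28, 6.02 and 5.33 on the control arrays and 5.72, 5.90, 5.53 and 3.29 on HFD (mean -0.80, SE 0.37, adjusted p = 0.771 by limma), but 1 pair was higher under quantile normalization and the mean was -0.38 without HDC-/-. Il1a differed by -1.46, -3.33 and -1.51 in 3 pairs and by 0.15 in HDC-/-. Tnf differed by -0.40 and -0.81 in WT and STAT6-/- and by 1.36 and 2.57 in the other pairs. Among receptors, Tlr6 (-0.79), Tlr11 (-1.25) and Tlr13 (-0.85), sensors of bacterial lipoprotein, profilin and bacterial RNA, were lower in 4 of 4 pairs, Tlr13 not so under quantile or median scaling. Without HDC-/- their means were -0.42, -0.82 and -0.33. Nod2, a sensor of bacterial cell wall, went from 2.82, 1.21, 0.92 and 1.99 to 1.96, 0.06, 0.27 and -0.84 (mean -1.37, SE 0.39, and -0.88 without HDC-/-). Slamf8, a receptor that restrains the oxidase of phagocytes, was more than 2-fold lower in 3 pairs and differed by -0.76 in STAT6-/- (mean -1.78). Tnfsf9, the ligand of 4-1BB, had a mean of -1.24, and Adamdec1, a protease of mature macrophages and dendritic cells, one of -1.90, and without the pair labelled STAT4-/- these were -0.70 and -1.16.

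Heat shock chaperones were lower in WT, in the pair labelled STAT4-/- and in STAT6-/-, with 11, 12 and 12 of 12 genes below 0, but in 4 of 12 in HDC-/-. Of all features 33.6%, 34.7%, 61% and 44.8% were below 0 in the 4 pairs. Hsph1, a partner of HSP70, was lower in 4 of 4 pairs, from 2.75, 1.66, 3.16 and 2.12 to 1.66, -0.41, 1.84 and 1.48 (mean -1.28, SE 0.40), and in 4 of 4 marrow pairs (mean -1.21). Of 23 ribosomal protein genes 22 were lower in WT and 3 in HDC-/-, with a median of -0.21 relative to all features.

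Lipid gene lists had medians near that of all features over the 4 pairs, but the pairs differed in direction for scavenger receptors and efflux genes. The list medians relative to all features were -0.07 for 24 cholesterol synthesis and SREBP2 target genes, 0.00 for 15 genes of fatty acid synthesis and desaturation, -0.08 for 23 genes of fatty acid oxidation and storage, -0.32 for 14 genes of cholesterol efflux and LXR targets and -0.35 for 14 scavenger receptors. The pair medians were -0.39, -0.75, 0.65 and -0.81 for scavenger receptors and -0.21, -0.88, 0.26 and -0.39 for efflux and LXR targets. Abca1 and Abcg1, which export cholesterol, had means of -0.49 and -0.47, and Abca1 differed by -3.16 in the pair labelled STAT4-/- and by 0.59 in WT. Without the pair labelled STAT4-/- the Abca1 mean was 0.40, and without HDC-/- the Abcg1 mean was -0.20.

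Few lipid genes were higher in 4 of 4 pairs. The shares were 0%, 6.67%, 13%, 7.14% and 0% of the lists in the order above, against 7.09% of all features. Outside fatty acid oxidation and storage they were thus near or below that of all features. Scd2, a stearoyl-CoA desaturase and LXR target, was at 0.66, 1.49, 1.19 and 1.08 on the control arrays and 1.55, 2.20, 1.24 and 1.99 on HFD, a mean difference of 0.64 (SE 0.26, adjusted p = 0.771), and 0.68 in marrow. Its paralog Scd1 was not, with -3.36 in the pair labelled STAT4-/- and between -0.28 and 0.50 elsewhere. Acadl, Acadvl and Hadha, enzymes of mitochondrial fatty acid oxidation, had means of 0.49, 0.16 and 0.57, of which the last 2 were 0.09 and 0.35 without the pair labelled STAT4-/-. The 3 of 23 genes higher in 4 of 4 pairs compare with 7.09% of all features. Under median scaling 1 pair of Acadl and of Acadvl was lower. Fabp4, a fatty acid carrier of macrophages, ranged from -5.08 in HDC-/- to 2.02 in STAT6-/-, and Msr1, the class A scavenger receptor, from -3.11 to 1.28.

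Glycolysis genes had pair medians of -0.36, 0.60, -0.08 and 0.58, and 24 oxidative phosphorylation genes had -0.23, 0.03, -0.01 and 0.05. Slc2a3, the glucose transporter GLUT3, was higher in 4 of 4 pairs, from 4.12, 4.52, 4.22 and 2.68 to 4.83, 6.19, 4.36 and 4.72. The mean difference was 1.14 (SE 0.39, adjusted p = 0.771), while Slc2a1, the transporter GLUT1, averaged -0.16. Pfkl, the liver-type phosphofructokinase, had no overlap, although the highest control level was 0.00 and the lowest HFD level 0.04, and 3 of its 4 pairs were higher under median scaling.

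IL-4 response genes, which depend on STAT6, had pair medians of -0.15, -1.70, 0.36 and -0.66. Retnla, a marker of alternative activation, was at -4.37, -3.53, -4.37 and -1.0 on the control arrays and -4.56, -4.60, -4.99 and -5.34 on HFD. The diets did not overlap, most of the mean of -1.55 (SE 0.57) came from HDC-/-, without which it was -0.63, and the WT difference was -0.19. Clec10a, a lectin of the same group, differed by -1.65, -1.94 and -2.54 in 3 pairs and by 0.25 in STAT6-/-. Ccl24 differed by 3.95 in STAT6-/- and 2.73 in the pair labelled STAT4-/-, and by -1.58 and -1.44 in WT and HDC-/-. Stat2, a carrier of the type I interferon signal, had a mean of -0.90, or -0.30 without HDC-/-, and Socs3 was lower in 4 of 4 pairs (mean -0.43, SE 0.25).

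**Figure D5:**
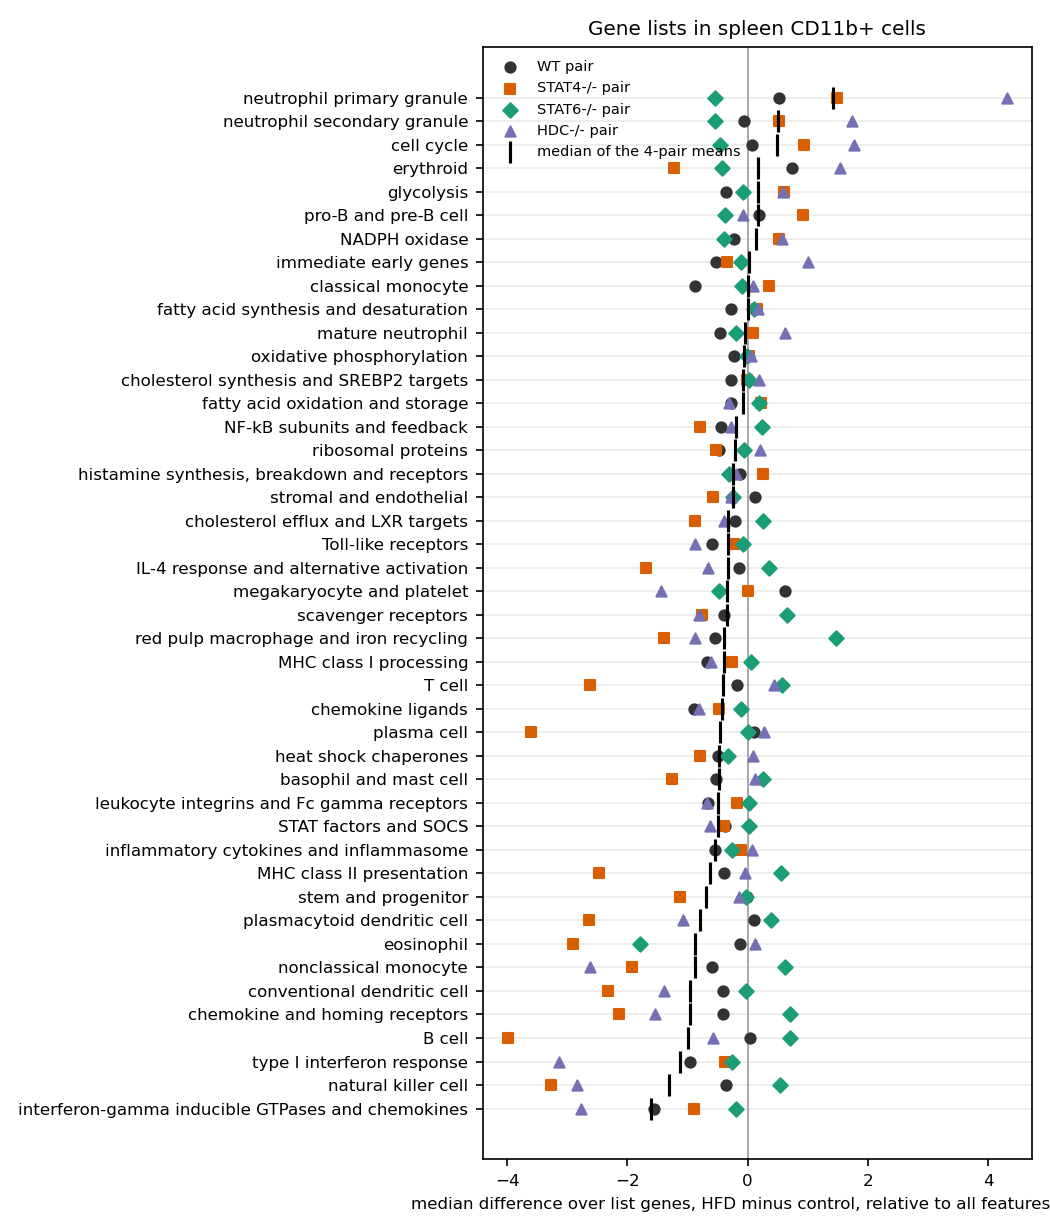
Median difference of HFD minus control (horizontal axis, log2, relative to the median of all features) for the gene lists (vertical axis) in spleen; symbols are the 4 genotype pairs and the bar is the median of the 4-pair means. Interferon lists lie to the left in all 4 pairs, as do those of conventional dendritic cells, chemokine ligands, Toll-like receptors and stem and progenitor cells. Lymphocyte and granule lists are spread by the pairs labelled STAT4-/- and HDC-/-.

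Within single pairs other genes had the largest differences. In WT the complement factor gene Cfb went from 1.43 to -1.85, Ms4a6d from 3.77 to 0.87 and the Wnt agonist Rspo1 from -0.02 to -3.11. All 3 were also lower in HDC-/-, Cfb by the most, from 2.68 to -2.32, and all 3 were higher in STAT6-/-. In the pair labelled STAT4-/- the calcium-binding protein gene Cabp5 went from 3.91 to -2.89 and Lzts3 from 3.42 to -3.55, while Mc3r, a melanocortin receptor, went from -3.99 to 2.04 and Adra1b, an adrenergic receptor, from -2.61 to 2.29. With the mean of a gene's probes in place of the brightest, Cabp5 differed by -3.07 and Adra1b by 2.97 in that pair. In STAT6-/- the serum amyloid gene Saa3 went from -3.01 to -0.06, Trem2, a lipid-sensing receptor of macrophages, from -2.68 to -0.37 and the paired receptor Pirb from 1.82 to 4.18. In HDC-/- Stfa3, a neutrophil stefin, went from -0.50 to 5.98, and Prok2, a neutrophil chemoattractant, from -2.89 to 3.37. Prok2 was also higher by 1.98 and 2.10 in the pair labelled STAT4-/- and in STAT6-/- and differed by -0.55 in WT. Each of these rests on 1 array a diet and has no replicate check.

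Whether the pairs labelled STAT4-/- and HDC-/- differed from WT and STAT6-/- was tested as a contrast. For 0 of 28781 features did the contrast pass limma's adjusted threshold (0% called), and 3098 (10.8%) had an unadjusted p under 0.05. The limma term for HFD against control in the pairs labelled STAT4-/- and HDC-/- called 2 features (0.00695%), both Y-linked. They were Ddx3y with 9.49 (adjusted p = 0.013) and Uty with 3.55 (adjusted p = 0.0491). These 2 pairs were grouped for their unlike pools, in which Y-linked RNA was missing from the control arrays alone. That Y-linked genes were called there was thus set by the grouping and is no result about diet. Ddx3y and Uty were not well above background on the 2 control arrays, so their differences are no bound. Uty was at least 8.11-fold and 8.65-fold higher on the HFD arrays, and the bounds of Ddx3y are those given above. Within WT and STAT6-/- 0 were called, and 502 (1.74%) had an unadjusted p under 0.05. Of the 16 natural killer genes 14 had an unadjusted p under 0.05 for the contrast, of the 25 cell cycle genes 17 and of the 14 B cell genes 9. Of the 29 type I interferon genes 1 did, and of the 19 interferon-gamma genes 0. For type I genes the pairs labelled STAT4-/- and HDC-/- were themselves unlike (medians -0.38 and -3.14), which adds to the error of the contrast. A low count there does not show that the pairs share a difference. Among the genes ranked first by this contrast beside the Y-linked ones were Bmf, a cell death activator (-3.04 on average in the pairs labelled STAT4-/- and HDC-/-, 0.50 in the others), and S1pr5, the receptor that lets natural killer cells leave tissues (-3.70 and 0.45).

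Spleen and marrow did not differ in the diet effect for any feature after adjustment. In the limma contrast of the tissues 0 of 28781 features were called (0%), and 316 (1.1%) had an unadjusted p under 0.05. Akap7 had a difference of -1.51 between the tissues (SE 0.54, adjusted p = 1 by limma), Phax -1.43 and Mal -1.51, while Cxcl9 (-0.01), Hsph1 (-0.07) and Scd2 (-0.04) had nearly the same mean in both.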

How the data were processed

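RNA of 16 pools was hybridised to 1-colour Agilent arrays of 43020 gene spots. The deposited files hold each spot's intensity, background-subtracted by Agilent Feature Extraction 11.0.1.1 per the file headers, with no scaling between arrays. From there, log2 intensities were set relative to the 75th percentile of their array, spots marked as outliers were masked (305 probes left out), and spots of a probe were averaged. The brightest probe with values on all 16 arrays stood for a gene, and features well above background on at least 2 of 16 arrays were kept (28781, of which 18664 carried a gene symbol). Diet was tested with limma 3.58.1 in R 4.3.3 over all 16 arrays, with 1 mean per combination of genotype and tissue plus a diet term per tissue (6 residual degrees of freedom), and Benjamini-Hochberg adjustment over all features at 0.05. The pairs were contrasted in a second fit with 4 residual degrees of freedom. The code was tested on simulated data.

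Each group holds 1 array of pooled mice, so p-values rest on the spread between the diet pairs of both tissues and on limma's prior over all features, not on replicates within a group. An exact sign-flip test over 4 pairs cannot give a two-sided p below 0.125. Named genes, among features well above background on at least 6 of 8 spleen arrays, were up to 12 per direction with 4 of 4 pairs alike, ranked by the smallest pair difference, up to 8 per direction with no overlap and 8 per direction of the contrast between pairs, both ranked by p, and up to 6 per direction in each pair. From each list up to 5 members with the largest mean difference were added, and further members were named after their values were seen. The members and the 46 lists were chosen with earlier results of these data known. Alternatives changed the scaling, background correction (normexp, offset 50), probe rule, filter, fit and the pairs or scans used. Promoters came from RefSeq. Some genes are not reported here.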

Additional observations from a re-analysis of the deposited data

Results flagged for a closer look

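In groups of 4 spleen arrays of 1 diet, the mean level of each list was checked for an array set apart by a gap larger, as a share of the group's range, than Dixon's 95% critical value. Of 92 groups tested, 5 held such an array, and chance gives about 1 in 20 groups.

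The mean level of MHC class II genes was 1.22 on the HFD array labelled STAT4-/-, against 3.23 to 3.40 on the other HFD arrays. Mature neutrophil genes were at 5.14 on that same array, against 4.12 to 4.26. On the HDC-/- control array they were at 3.52, against 4.34 to 4.49 on the other control arrays. STAT factors and SOCS genes were at 0.94 on the WT HFD array, against 0.54 to 0.61. Stromal and endothelial genes were at -4.53 on the WT control array, against -3.56 to -3.42. Causes of these gaps were not tested.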

How the results depend on the processing

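Of 139 results other than counts, 137 kept their direction under every alternative run. The other 2 turned with the WT and STAT6-/- pairs alone, where the natural killer median was 0.0484 and the primary granule median -0.0567, and the cause was not tested. The single genes counted here for diet all had the same direction in every pair, so leaving out pairs could not turn them. Differences within single pairs were chosen as the largest and were not rerun with pairs left out. The 137 thus rest in part on how the results were chosen. With normexp background correction 1 feature was called for diet (Akap7, -2.68, adjusted p = 0.0227) and 1 for the difference between pairs (Ddx3y, 6.01, adjusted p = 0.00567), in place of 0 and 0. The Ddx3y call follows from how the pairs were grouped and is no result about diet. Features with no overlap and higher on HFD numbered 261 under quantile normalization. Leaving out 1 pair gave 1203, 602, 1092 and 374 higher and 1027, 487, 917 and 295 lower (without WT, the pair labelled STAT4-/-, STAT6-/- and HDC-/- in turn), and the WT and STAT6-/- pairs alone gave 2681 and 2225, since fewer arrays overlap less. The counts called by limma stayed at 0 leaving out each pair in turn. Of the differences within single pairs, 9 moved by at least 1 (log2) with the mean of probes and 12 with normexp. Diets were paired by genotype, a block in the fit. By replicate number no paired analysis was possible because all spleen arrays carry the same number. Precision is limited by 4 pairs of pooled arrays, and dim genes by signal over background.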
